A study of Homo sapiens with 42 samples.

Results

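Gene expression in MiaPaCa-2, an established line of human pancreatic ductal adenocarcinoma, was compared between cells grown with simvastatin at 20 µM and cells grown as the control. The comparison took every library whose title names this line with the high dose of simvastatin or with the control, and held 5 independent libraries, 3 with simvastatin and 2 of the control, out of 42 in the series (40 of them independent). The title of a further column calls it control 3, but its values were a weighted sum of other columns, and it was not counted as a replicate. The whole study covered MiaPaCa-2 and PANC-1 cells without a statin or with simvastatin, lovastatin or fluvastatin at 20 µM or at 2 µM. All groups used here are MiaPaCa-2 cells at passages 12 to 15, and the labels give no transgene or other agent. Besides the 5 libraries, they are lovastatin at 20 µM (2 independent libraries), fluvastatin at 20 µM (3) and simvastatin at 2 µM (3). How long the cells were treated, and what vehicle the control received, is not stated in the sources used here.

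Statins block the synthesis of mevalonate. Mevalonate is the precursor of cholesterol and of the farnesyl and geranylgeranyl groups that anchor many small GTPases in membranes. When sterols in the endoplasmic reticulum run low, the transcription factor SREBP-2 is released and activates the genes of cholesterol synthesis and uptake.

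The values are FPKM, fragments scaled to the length of the transcript and to the mapped fragments of the library, on a log2(FPKM + 1) scale. "Rose", "fell" and "called" refer to a limma test with a Benjamini-Hochberg adjusted p under 0.05 over the 8534 genes tested. Fold changes are log2 values of FPKM + 1, so that changes of genes near 0 come out too small. A number in parentheses after the levels of a gene, or after "rose by", "fell by" or "at" with no unit, is a log2 fold change of simvastatin at 20 µM over the control, and in the later comparisons over the other group named. The labels do not say that the replicates are separate cultures, so the p-values rest on a spread that may be technical, and the depth of the libraries is unknown. The libraries shared 1 distribution of values, with medians from 4.37 to 4.38 on the log2 scale, so a change in the total RNA of a cell could not be seen. In bulk RNA, fewer cells of a type and less RNA per cell cannot be told apart. Each library had a lowest value shared by many genes, 0.0634, 0.0549 and 0.0579 FPKM with simvastatin for 140, 126 and 129 genes, and 0.0725 and 0.0129 FPKM in the control for 164 and 78 genes. A gene at that value is described below as at the library's lowest value, and its fold change is no bound on the true one. At the other end, the iron storage gene FTL took the table's highest value, 6990 FPKM, in all 3 simvastatin libraries, so its level had no room to be higher.

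The label of the line was set against its markers. VIM, KRT8, KRT18 and KRT19 were abundant in all 5 libraries, with 3318, 3934 and 3654 FPKM of VIM in the simvastatin libraries and 3010.1 and 2933 FPKM in the control libraries. CDH1 and EPCAM, which encode E-cadherin and a surface glycoprotein of epithelia, stayed near 0, with CDH1 between 0.0579 and 2.16 FPKM in the 3 simvastatin libraries and at 0.603 and 1.25 FPKM in the control. Of 11 fibroblast and stellate cell markers, 3 were in the table, and of 12 leukocyte markers 2 were. COL1A2, a fibrillar collagen chain, had 36.8, 27.3 and 24.3 FPKM with simvastatin and 54.7 and 68 FPKM in the control, and fell. COL1A1 stayed near 1 FPKM, and THY1 near 0. The leukocyte list moved in both directions, since CD14 fell to 2.16, 2.21 and 1.43 FPKM with simvastatin against 7.67 and 6.3 FPKM in the control, while CD68, a lysosomal protein also found outside leukocytes, rose to 33.8, 42.3 and 31.5 FPKM with simvastatin against 11.4 and 14.2 FPKM in the control. Summed over its listed genes, the leukocyte list was at 36.0, 44.5 and 32.9 FPKM with simvastatin and 19.0 and 20.5 FPKM in the control. The fibroblast and stellate list was at 38.8, 28.8 and 26.0 FPKM with simvastatin and 55.5 and 70.7 FPKM in the control, so the first sum was higher and the second lower in every simvastatin library. The part of these markers in the results was not tested.

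Most of the table differed between simvastatin at 20 µM and the control. Of 8534 genes tested, 5574 were called (65.3%), 2747 higher (32.2%) and 2827 lower (33.1%). At least a 2-fold change was found in 1030 higher genes (12.1%) and 1091 lower genes (12.8%). The median log2 fold change over all genes tested was 0.01. Replicates differed by a median of 0.15 to 0.16 between the simvastatin libraries and 0.13 between the control libraries on the log2 scale. The libraries of the groups did not overlap for 6682 genes (78.3%).

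**Figure D1:**
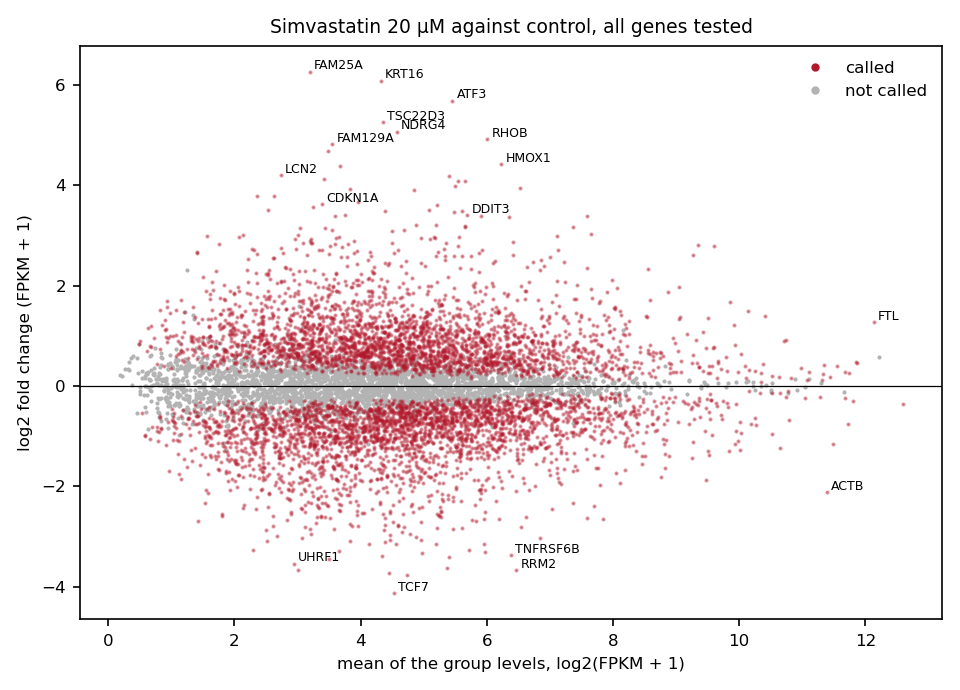
Log2 fold change of each of the 8534 genes tested, simvastatin 20 µM against control, plotted against the mean of the group levels on the log2(FPKM + 1) scale, with called genes in red and others in grey. Changes of either sign spread over the whole range of levels, with the largest increases near 6 (KRT16 at 6.09) and the largest decreases near -4 (TCF7 at -4.12).

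The 12 largest increases, taken among called genes whose libraries did not overlap between the groups, included those of KRT16, ATF3 and RHOB. KRT16, a keratin of stressed and wounded epidermis, had 169.8, 156 and 164 FPKM in the simvastatin libraries and 1.49 and 1.34 FPKM in the control libraries (log2 fold change 6.09, adjusted p = 4.6e-15). ATF3, a transcription factor induced by many stresses, had 314, 308 and 319 FPKM with simvastatin, against 4.36 and 5.9 FPKM in the control (5.69, adjusted p = 5.1e-14). RHOB, an immediate early gene for a small GTPase, had 357, 362 and 342 FPKM with simvastatin and 12 and 9.41 FPKM in the control (4.93, adjusted p = 3.5e-16). In each of these genes every simvastatin library lay far above both control libraries, and the simvastatin libraries lay within a narrow range. TSC22D3, the glucocorticoid-induced leucine zipper protein, had 128, 124 and 124 FPKM with simvastatin and 2.64 and 1.95 FPKM in the control (5.27). HMOX1, which encodes heme oxygenase 1, the enzyme that breaks down heme, had 343, 350.1 and 351 FPKM with simvastatin and 15.7 and 14.7 FPKM in the control (4.43). NUPR1, a small stress-induced chromatin protein first described in the pancreas, had 57.2, 54.8 and 60.0 FPKM with simvastatin and 1.93 and 1.64 FPKM in the control (4.39). All 3 moved by more than the whole range of either group.

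FAM129A, a protein induced by endoplasmic reticulum stress, rose by 4.83 and SLFN5, a Schlafen family member, by 4.69. NDRG4, of the N-myc downstream-regulated family, had 156, 118 and 139.6 FPKM with simvastatin and 3.11 and 3.07 FPKM in the control (5.07). SHISA4 rose by 4.19. FAM25A had 74.4, 82.3 and 82 FPKM with simvastatin and was at the library's lowest value in both control libraries. LCN2, a secreted siderophore-binding protein of inflamed epithelia, had 28.4, 27.4 and 24.4 FPKM with simvastatin, against 1.19 and 0.0129 FPKM in the control, where control 2 was at its lowest value. These 2 genes were thus close to absent in the control, and the size of their fold changes depends on the pseudocount.

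**Figure D2:**
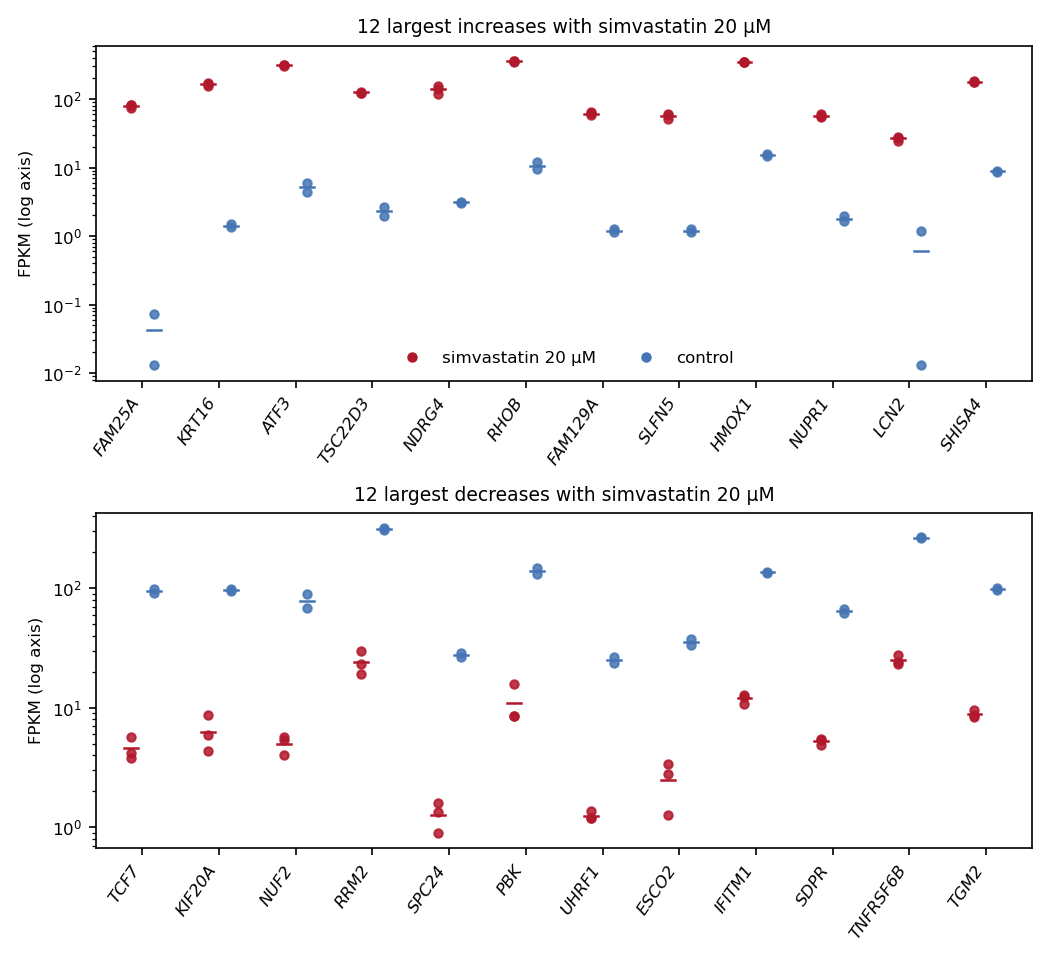
FPKM on a log axis of the 12 genes with the largest increase and the 12 with the largest decrease, each dot 1 library and each bar the mean, with simvastatin 20 µM (n = 3) left of the control (n = 2). Only genes whose libraries did not overlap between the groups could be chosen, so the gap in all 24 follows from the choice. FAM25A and LCN2 reach the lowest value of a control library.

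The largest decreases were led by a transcription factor of the Wnt pathway and by genes of cell division. TCF7, an HMG-box partner of beta-catenin, had 3.79, 5.71 and 4.21 FPKM with simvastatin and 91.7 and 98.4 FPKM in the control (log2 fold change -4.12, adjusted p = 1.5e-11). RRM2, the inducible small subunit of ribonucleotide reductase, had 19.1, 23.3 and 29.7 FPKM with simvastatin, against 308 and 317 FPKM in the control (-3.67, adjusted p = 7.1e-11). Simvastatin 3 was the highest of its group in RRM2 and still lay far below both control libraries. KIF20A, a kinesin of late mitosis, fell by 3.77 on the log2 scale, NUF2 by 3.73 and SPC24 by 3.66, both parts of the kinetochore's NDC80 complex. The mitotic kinase PBK fell by 3.62, the methylation maintenance factor UHRF1 by 3.54 and the cohesin acetyltransferase ESCO2 by 3.44. Other decreases were outside the cell cycle. IFITM1, an interferon-induced membrane protein, had 12.2, 12.9 and 10.8 FPKM with simvastatin and 138 and 135 FPKM in the control (-3.41). TNFRSF6B, a soluble decoy receptor for Fas ligand, had 23.3, 27.7 and 24 FPKM with simvastatin and 261 and 269 FPKM in the control (-3.36). SDPR, a protein of caveolae, fell by 3.39 and TGM2, the tissue transglutaminase, by 3.34. The largest decreases were likewise taken among genes with no overlap, so the control libraries were higher in each by the choice.

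More genes of the mevalonate and cholesterol pathway rose than fell, and an early step was among those that rose. Of 21 genes tested, 11 rose and 4 fell, beside 32.2% and 33.1% of all genes tested. Of the 11, 8 rose by at least 2-fold. The median log2 fold change of the list was 0.51 beside 0.01 over all genes tested. HMGCS1, a synthase of the early pathway, had 63.6, 63.7 and 62.8 FPKM with simvastatin and 15.4 and 17.5 FPKM in the control (log2 fold change 1.89, adjusted p = 2.5e-09). It was higher in all 3 simvastatin libraries. DHCR7, the last reductase of cholesterol synthesis, had 109, 117 and 136 FPKM with simvastatin and 38.1 and 47.8 FPKM in the control (1.47). MVD, mevalonate diphosphate decarboxylase, had 79.8, 70.5 and 57.8 FPKM with simvastatin and 18.6 and 35.1 FPKM in the control (1.39), but control 1 and control 2 differed widely, and without control 1 its change was 0.95 and not called. HSD17B7, a reductase of the late pathway, went the other way, with 6.62, 5.06 and 7.06 FPKM with simvastatin and 16.9 and 14.3 FPKM in the control (-1.20). MVK, SQLE, LSS and CYP51A1 had changes from 1.01 to 1.18, and FDFT1, GGPS1 and NSDHL from 0.42 to 0.67. ACAT2 and PMVK were both at -0.68 and EBP at -0.38, and FDPS, IDI1, MSMO1, TM7SF2 and SC5D were not called, between -0.26 and 0.51. FDPS makes the farnesyl group's precursor and GGPS1 that of the geranylgeranyl group.

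**Figure D3:**
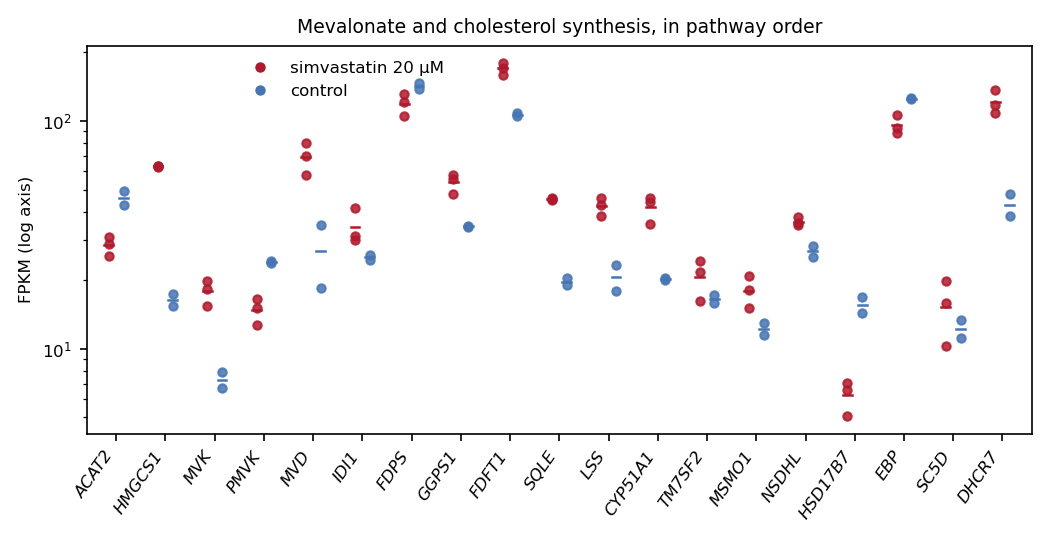
FPKM on a log axis of 19 genes of mevalonate and cholesterol synthesis in pathway order, each dot 1 library and each bar the mean, simvastatin 20 µM (n = 3) left of the control (n = 2). HMGCS1, MVK, SQLE and DHCR7 are higher in every simvastatin library, and ACAT2, PMVK, HSD17B7 and EBP lower.

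Among 20 genes of SREBP regulation and sterol handling, 8 rose and 6 fell, with a median of 0.21. Over all genes tested 32.2% rose and 33.1% fell, so the shares of this list lay near those of the table. The genes for the SREBP proteins moved apart, with SREBF2 rising to 73.9, 60.8 and 61.5 FPKM with simvastatin against 21.3 and 23.4 FPKM in the control (1.50), and SREBF1, which encodes the form tied to fatty acid synthesis, at -1.02. INSIG1, which retains the SREBP complex in the endoplasmic reticulum and is itself a target of it, had 81.3, 62.9 and 86.9 FPKM with simvastatin and 32.5 and 31.9 FPKM in the control (1.22). The lysosomal cholesterol exporters NPC1 and NPC2 rose by 1.41 and 1.54, and the acetyl-CoA synthetase ACSS2 by 1.48. ABCA1 and ABCG1, the exporters of cellular cholesterol, were at -0.69 and -0.89, but their levels were low. ABCA1 had 0.912, 1.80 and 0.972 FPKM with simvastatin and 2.06 and 3.08 FPKM in the control. ABCG1 had 1.57, 1.76 and 1.65 FPKM with simvastatin and 4.18 and 3.67 FPKM in the control.

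Most of the small GTPases that carry prenyl groups had more mRNA with simvastatin. Among all genes tested, 32.2% rose and 33.1% fell. Of 38 genes for prenylated small GTPases tested, 28 rose and 3 fell (1 without control 2), 13 of the 28 by at least 2-fold, with a median of 0.61. After RHOB the largest changes were those of MRAS (2.43), RAB32 of lysosome-related organelles (1.57), RHOF (1.40) and RAB10 of exocytic transport (1.35). RHOA, a regulator of actin stress fibres, had 799, 849 and 855 FPKM with simvastatin and 321 and 342 FPKM in the control (1.33). In RHOA the groups did not overlap, as in 78.3% of all genes tested. RAC1 was at -0.26 and CDC42 at -0.20, and RAB3A, of regulated secretion, at -1.12. NRAS, with -0.12, was not called.

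Of 13 prenyl transferase and CAAX processing genes, 4 rose and 5 fell, with a median of 0.02, near the shares of all genes tested. The 4 that rose were 2 without simvastatin 2 and in the fits with no trend or with the replicate block. They were 1 without simvastatin 1 and in the fit of the 2 groups alone, and fewer without either control library. PDSS2 and PDSS1, which build the isoprenoid tail of ubiquinone, had the largest decreases, with 7.4, 4.66 and 7.3 FPKM of PDSS2 with simvastatin and 23.7 and 33.6 FPKM in the control (-1.99). PDSS1 was at -1.11, and its call was lost without control 2 or without simvastatin 3, where it was -0.95 and -0.73. ZMPSTE24 and ICMT, the protease and the methyltransferase that finish a prenylated protein, were at -1.02 and -0.96.

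All 9 Krüppel-like factor genes tested rose, 5 of them by at least 2-fold, with a median of 1.17, where 32.2% of all genes tested rose. KLF2, a transcription factor known to be induced by statins in endothelium, had 299, 319 and 318 FPKM with simvastatin and 50.4 and 53.1 FPKM in the control (log2 fold change 2.57, adjusted p = 9e-14). KLF6 had 501, 494 and 492 FPKM with simvastatin, against 55 and 52.8 FPKM in the control (3.18), and was the most abundant of the 9. KLF4, a factor of epithelial differentiation, rose by 3.11, KLF11 by 2.30 and KLF3 by 1.17. The 3 simvastatin libraries lay close together in KLF2 and KLF6, several times above the control.

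Genes of the actin cytoskeleton fell more often than they rose. Of 32 tested, 16 fell and 8 rose (4 without control 1), with a median of -0.26. ACTB, cytoplasmic beta-actin, had 1298, 1285 and 1270.3 FPKM with simvastatin and 5950.4 and 5243 FPKM in the control (-2.12, adjusted p = 3.2e-14). ACTB was among the most abundant genes of the control, and all 3 simvastatin libraries were far below it. VCL, the focal adhesion protein vinculin, was at -1.97, MYL9, a myosin light chain of contractile fibres, at -1.85, and the actin-severing protein CFL1 at -1.39. CNN1, a calponin, was at the lowest value of both control libraries and had 2.09, 1.31 and 2.66 FPKM with simvastatin. Among 19 targets and factors of YAP and TAZ, co-activators that respond to mechanical tension, 10 fell and 1 rose (2 without simvastatin 2), with a median of -0.43. Over all genes tested 33.1% fell and 32.2% rose. Those of the list that fell included the genes of the factors themselves, YAP1 (-0.45), WWTR1 (-0.68), TEAD1 (-0.52) and TEAD4 (-0.43). The 8 not called were all outside these factors, the targets AXL and MYOF among them. NT5E, the surface nucleotidase CD73, was at -1.86, AMOTL2 at -1.60, CYR61 at -0.97 and AJUBA at -0.95. CYR61 had 34, 23.7 and 25 FPKM with simvastatin and 56.5 and 52.2 FPKM in the control. CTGF, the other widely used target, had 1.74, 1.85 and 1.7 FPKM with simvastatin and 1.87 and 2.19 FPKM in the control and was not called. GADD45B, the member that rose (2.80), is also a general stress gene.

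Genes of DNA replication and mitosis fell almost without exception. Of 46 mitosis and spindle genes tested, 45 fell and 0 rose, all 45 by at least 2-fold, with a median of -2.20, and only CENPN (-0.81) was not called. Of 41 DNA replication genes, 40 fell and 0 rose, with a median of -1.91, and only GINS3 (-0.17) was not called. Over all genes tested 33.1% were lower, and 12.8% at least 2-fold lower. In the list of cyclins, cyclin-dependent kinases and E2F factors, 27 of 31 fell and 1 rose (median -1.46). Of 20 genes of deoxynucleotide supply, 14 fell and 3 rose (median -0.87).

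TOP2A, the topoisomerase that untangles chromosomes, had 22.1, 16.4 and 21.5 FPKM with simvastatin and 179.5 and 186 FPKM in the control (-3.14). Cyclin A2, encoded by CCNA2, had 6.68, 6.15 and 6.98 FPKM with simvastatin and 62.9 and 63 FPKM in the control (-3.07). CDK1, the kinase that starts mitosis, had 14.2, 28.6 and 20.4 FPKM with simvastatin and 131 and 137 FPKM in the control (-2.67), and its partner CCNB1 was at -2.65. In these genes the lowest control library was well above the highest simvastatin library. E2F1, a factor that switches on S phase genes, was at -2.43, and MYBL2, another transcription factor of the cell cycle, at -2.59. In the replication list GINS4, GINS2, RFC3 and MCM10 followed UHRF1, with -3.11, -2.94, -2.71 and -2.66. TYMS and TK1, which make thymidylate, were at -2.61 and -2.51, and DTYMK at -1.77. The members that rose were MYC (1.25), a driver of growth that is not itself a cyclin or E2F gene, and, in the nucleotide list, MTHFD2 (1.05), SHMT2 (0.73) and IMPDH2 (0.30), of which MTHFD2 and SHMT2 are mitochondrial enzymes of one-carbon metabolism.

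Promoters of these genes are shown because members of the lists moved together. The sequences are those of RefSeq in the build GRCh38.p14, 250 bases before the start site, and the table gave a promoter under the same symbol for 6139 of the 8534 genes tested; where it gave several, the first was used. The search covered both strands. The letters TTTGAA, the core of the cell cycle homology region of mitotic promoters, were in 19 of 39 promoters of the mitosis list (48.7%), in 7.77% of the 6139 promoters of genes tested and in 13.3% of all 35116 promoters of the table. The letters TTTNNCGC, an E2F core, were in 14 of 36 promoters of the replication list (38.9%), in 9.42% of those of genes tested and in 5.92% of all. No matches to the 2 motifs overlap in the sequences printed. TTTGAA was also in 6 of 23 promoters of the cyclin list (26.1%), and 0 of 36 of the replication list. TTTNNCGC was in 6 of 23 of the cyclin list (26.1%) and 4 of 39 of the mitosis list (10.3%). In the deoxynucleotide list, TTTNNCGC was in 1 of 17 (5.88%). TCACNCCAC, an SREBP core, was searched too. It was in 0 of 16 promoters of the cholesterol synthesis list and 1 of 17 of the sterol handling list (5.88%). Of the promoters of genes tested, 0.847% held it. A match describes these letters only. Capitals mark the matches to TTTGAA in 3 mitotic genes, TOP2A at chr17:40417897-40418146 on the minus strand, PLK1 at chr16:23678639-23678888 on the plus strand and BUB1B at chr15:40160819-40161068 on the plus strand.
TOP2A: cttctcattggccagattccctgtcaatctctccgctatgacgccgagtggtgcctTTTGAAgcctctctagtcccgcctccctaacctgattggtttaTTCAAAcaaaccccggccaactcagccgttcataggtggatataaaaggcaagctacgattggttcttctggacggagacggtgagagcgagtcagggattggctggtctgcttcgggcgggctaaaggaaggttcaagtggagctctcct
PLK1: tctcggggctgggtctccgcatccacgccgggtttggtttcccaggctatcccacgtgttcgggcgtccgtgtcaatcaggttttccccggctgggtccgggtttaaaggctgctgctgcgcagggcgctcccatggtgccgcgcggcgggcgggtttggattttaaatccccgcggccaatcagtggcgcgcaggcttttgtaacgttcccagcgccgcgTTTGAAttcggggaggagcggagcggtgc
BUB1B: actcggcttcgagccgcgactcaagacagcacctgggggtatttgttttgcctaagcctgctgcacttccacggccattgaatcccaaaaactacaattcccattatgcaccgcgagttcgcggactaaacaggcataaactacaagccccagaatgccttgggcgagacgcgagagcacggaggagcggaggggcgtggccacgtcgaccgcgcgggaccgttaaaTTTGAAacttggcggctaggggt

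In PLK1 and BUB1B the match began at -29 and -23, counted from the start site, and in TOP2A the matches began at -194 and -151. PLK1, a kinase of mitotic entry, was at -2.86 and BUB1B, a kinase of the spindle checkpoint, at -2.87. The next promoters, with capitals at the matches to TTTNNCGC, are those of UHRF1 at chr19:4909251-4909500 on the plus strand, of GINS2, a part of the replicative helicase, at chr16:85688955-85689204 on the minus strand, and of PCNA, the sliding clamp of DNA polymerase, at chr20:5126623-5126872 on the minus strand.
UHRF1: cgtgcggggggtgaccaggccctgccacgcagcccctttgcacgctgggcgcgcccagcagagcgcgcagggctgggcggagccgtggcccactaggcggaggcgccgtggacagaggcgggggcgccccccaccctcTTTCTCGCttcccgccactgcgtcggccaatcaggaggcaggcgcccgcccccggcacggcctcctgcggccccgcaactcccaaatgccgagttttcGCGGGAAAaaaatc
GINS2: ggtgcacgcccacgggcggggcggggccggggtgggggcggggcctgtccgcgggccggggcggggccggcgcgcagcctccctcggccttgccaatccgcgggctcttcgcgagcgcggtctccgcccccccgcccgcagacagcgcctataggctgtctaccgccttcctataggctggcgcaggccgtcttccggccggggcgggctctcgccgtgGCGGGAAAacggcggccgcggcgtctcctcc
PCNA: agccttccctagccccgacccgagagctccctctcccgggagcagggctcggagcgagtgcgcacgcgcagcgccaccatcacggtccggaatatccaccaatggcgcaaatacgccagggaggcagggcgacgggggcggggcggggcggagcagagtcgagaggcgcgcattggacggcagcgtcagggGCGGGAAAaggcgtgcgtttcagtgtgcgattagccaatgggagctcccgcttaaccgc

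The match nearest to the start site began at -14 in UHRF1, -31 in GINS2 and -59 in PCNA, and each of these reads GCGGGAAA on the strand shown. PCNA had 52.8, 48.7 and 44.8 FPKM with simvastatin and 206 and 208 FPKM in the control (-2.07). PLK1, BUB1B and PCNA were chosen for display after their values and matches were seen.

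Cell cycle inhibitors and genes of growth arrest rose in most cases. Of 22 tested, 15 rose and 3 fell, beside 32.2% and 33.1% of all genes tested. Of the 15, 11 rose by at least 2-fold, and the median of the list was 1.07. CDKN1A, which encodes the kinase inhibitor p21, had 33.1, 36.7 and 38.2 FPKM with simvastatin and 2.21 and 1.77 FPKM in the control (log2 fold change 3.63, adjusted p = 1.2e-13). PHLDA3, an inhibitor of AKT, rose by 3.67, GADD45A, a growth arrest gene, by 3.37 and BTG1, an antiproliferative gene, by 3.22. CDKN2C, which encodes the kinase inhibitor p18, went down, with 3.25, 3.48 and 4.06 FPKM with simvastatin and 16.5 and 17.7 FPKM in the control (-1.98). In the BCL2 family, a list that shares BBC3 and BAX with the one above, 7 of 13 rose and 0 fell (median 0.42). BBC3, which encodes the death inducer PUMA, had 71.3, 69.6 and 65.1 FPKM with simvastatin and 6.07 and 4.44 FPKM in the control (3.49), PMAIP1 (NOXA) rose by 2.02 and BCL2L11 (BIM) by 1.46. The protective members BCL2L1 and BCL2L2 both rose by 0.59. MCL1, with -0.06, and BAX, with -0.01, were not called.

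The stress-responsive bZIP transcription factors and the genes of the integrated stress response, in which phosphorylated eIF2 favours translation of ATF4, rose as groups. Of 31 bZIP genes, 26 rose and 3 fell, 21 of the 26 by at least 2-fold, with a median of 1.33. The shares over all genes tested were 32.2% higher and 33.1% lower. Of 23 effectors, 18 rose and 1 fell, with a median of 1.89, the highest of the lists drawn below. That list also holds kinases of eIF2, which moved apart. EIF2AK3 rose by 1.37, EIF2AK1 was the member that fell (-0.46), and EIF2AK2 was not called (-0.02). ATF4 itself had 545, 518 and 521 FPKM with simvastatin and 120.2 and 121 FPKM in the control (2.12). DDIT3, which encodes the factor CHOP, had 167, 168 and 167 FPKM with simvastatin and 14.7 and 15 FPKM in the control (3.41, adjusted p = 6.2e-14). The libraries of each group agreed closely in both genes, and the groups were far apart. FOS and JUN, the subunits of AP-1, rose by 2.90 and 2.49, CEBPB by 2.60 and XBP1 by 2.52. The clock factors DBP and TEF and the factor CEBPD fell, with values from -0.67 to -0.50.

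Among the effectors, PPP1R15A, the subunit that directs dephosphorylation of eIF2, had 149, 145 and 149 FPKM with simvastatin and 12.5 and 12.3 FPKM in the control (3.47). TRIB3, a pseudokinase that binds ATF4, had 155, 149 and 149 FPKM with simvastatin and 15 and 16.3 FPKM in the control (3.19). SESN2 and DDIT4, inhibitors of the growth kinase mTORC1, rose by 3.09 and 2.98. None of these genes overlapped between the groups, as was so for 78.3% of all genes tested. Of 20 genes of amino acid synthesis and uptake, 17 rose and 2 fell (1 without control 2, simvastatin 1 or simvastatin 3), with a median of 0.85. SLC3A2, the shared chain of several amino acid exchangers, had 863, 776 and 903 FPKM with simvastatin and 165 and 166 FPKM in the control (2.34). SLC7A11, its cystine-carrying partner, rose by 1.93, SLC1A4 by 1.78, SLC6A9 by 1.61 and ASNS, asparagine synthetase, by 1.46. Of 26 tRNA synthetase and initiation genes, 14 rose and 4 fell (median 0.29), beside 32.2% and 33.1% of all genes tested. Those that rose were led by SARS (1.76), GARS (1.72) and the initiation factor EIF1 (1.67).

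The letters TGATGNAA, the core of the element that ATF4 binds with a C/EBP partner, were in 3 of 16 promoters of the effector list (18.8%) and in 2 of 15 of the amino acid list (13.3%). The same letters were in 1.27% of the promoters of genes tested and in 3.14% of all promoters of the table. The promoters of ASNS, at chr7:97872409-97872658 on the minus strand, and of CHAC1, which encodes a glutathione-degrading enzyme, at chr15:40953221-40953470 on the plus strand, are shown with these matches in capitals. CHAC1 was chosen after its match was seen.
ASNS: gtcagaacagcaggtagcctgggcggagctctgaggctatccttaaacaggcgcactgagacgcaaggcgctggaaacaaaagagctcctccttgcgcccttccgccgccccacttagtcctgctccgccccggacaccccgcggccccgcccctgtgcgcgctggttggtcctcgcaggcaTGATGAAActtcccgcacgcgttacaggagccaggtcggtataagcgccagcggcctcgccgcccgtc
CHAC1: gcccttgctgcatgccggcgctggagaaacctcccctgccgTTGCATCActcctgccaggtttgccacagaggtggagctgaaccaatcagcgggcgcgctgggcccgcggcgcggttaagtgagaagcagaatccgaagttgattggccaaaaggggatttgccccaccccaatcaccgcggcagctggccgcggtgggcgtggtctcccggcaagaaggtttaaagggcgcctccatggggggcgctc

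The match began at -68 in ASNS, where it reads TGATGAAA, and at -209 in CHAC1, where it lies on the opposite strand and reads TTGCATCA. ASNS had 199, 249 and 232 FPKM with simvastatin and 82.6 and 80.0 FPKM in the control. CHAC1 had 29.3, 25 and 28.2 FPKM with simvastatin and 6.56 and 5.94 FPKM in the control (1.97). Both were higher in every simvastatin library, where 78.3% of all genes tested had no overlap between the groups in either direction.

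The chaperone lists held calls in both directions, as did the table, where 32.2% of the genes tested rose and 33.1% fell. Of 21 genes of endoplasmic reticulum chaperones and the unfolded protein response, 10 rose and 6 fell (median 0.22). DNAJB9 and SEL1L, which serve degradation of misfolded proteins, rose by 2.66 and 2.46, and HSPA5, the chaperone BiP, had 444, 452 and 460.2 FPKM with simvastatin and 149.6 and 151 FPKM in the control (1.58). The sensor ERN1 rose by 1.07. PDIA6, a disulfide isomerase, was at -1.03, and PDIA4, PDIA3 and CALR were also lower. Of 17 heat shock genes, 7 rose (fewer without control 1) and 6 fell, with a median of 0.00, near the shares of all genes tested. DNAJB2 rose by 2.94 and HSPB1 by 1.37, while HSPE1, a mitochondrial chaperonin, was at -1.64 and HSP90AA1 at -0.97. HSPA8, the abundant constitutive chaperone, was at 0.00 and was not called.

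Targets of NRF2, the factor that answers oxidative stress, rose in 17 of 25 cases and fell in 3 (median 1.04). Across all genes tested the shares were 32.2% and 33.1%. HMOX1 led, and was followed by AKR1C1, an aldo-keto reductase with near-identical relatives among which reads may be split (3.40), GCLC, which limits glutathione synthesis (2.65), and OSGIN1 (2.38). SQSTM1, an autophagy receptor, had 1719, 1719 and 1756 FPKM with simvastatin and 257 and 235 FPKM in the control (2.81). NQO1, often used as a marker of NRF2, was lower, with 532, 538 and 518 FPKM with simvastatin and 693 and 711 FPKM in the control (-0.41), and GCLM was at -0.27. FTH1, the other ferritin chain, had 1873, 1907 and 1907 FPKM with simvastatin and 667 and 679.7 FPKM in the control (1.49). The letters TGACNNNGC, a core of the element that NRF2 binds, were in 4 of 19 promoters of the list (21.1%). They were in 12.4% of the promoters of genes tested, and in 5 of 10 of the prenyl transferase list (50%).

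Of 37 autophagy and lysosome genes, 25 rose and 2 fell (median 0.67), beside 32.2% and 33.1% of all genes tested. Among the 25, 12 rose by at least 2-fold. The 2 that fell were 1 without control 1, control 2, simvastatin 2 or simvastatin 3, and also in the fits of the 2 groups alone and with no trend. GABARAPL1, which coats autophagosomes, had 205, 213 and 198 FPKM with simvastatin and 9.02 and 13.8 FPKM in the control (4.09). WIPI1, a lipid-binding protein of early autophagosomes, had 102, 128 and 104 FPKM with simvastatin and 5.65 and 7.27 FPKM in the control (3.91). Both genes were far higher in each simvastatin library. OPTN, a receptor for damaged mitochondria, rose by 3.40 and MAP1LC3A by 2.51. CTSB and CTSZ, lysosomal proteases, were at -0.50 and -0.18.

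Genes of NF-kappaB signalling and cytokines rose in 18 of 24 cases and fell in 1 (2 with no filter on low values; median 1.57), 16 of the 18 by at least 2-fold. TNFAIP3, the feedback inhibitor A20, had 14.3, 16.9 and 17.9 FPKM with simvastatin and 1.14 and 2.03 FPKM in the control (2.76). RELB, a subunit of NF-kappaB, had 44.2, 41.5 and 45.3 FPKM with simvastatin and 6.06 and 5.89 FPKM in the control (2.68). TRAF1, an adaptor of TNF receptors, rose by 3.14 and the chemokine CXCL3 by 2.72. The related chemokine CXCL1 was lower, at -0.41, and CXCL1, CXCL2 and CXCL3 are close in sequence, so reads may be split among them. Of 20 interferon-stimulated genes, 12 rose and 4 fell (median 0.66), beside 32.2% and 33.1% of all genes tested. ISG15 was at 2.93, ISG20 at 2.83, OASL at 2.73, IFIT2 at 2.46 and IFIT3 at 2.26. BST2, a membrane tether of viruses, was among those that fell, with 3.37, 4.15 and 2.99 FPKM with simvastatin and 17.4 and 19.5 FPKM in the control (-2.12), as was IFITM1 outside the list.

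The feedback genes of the MAP kinase pathway, which reads out Ras activity, had 10 of 25 members higher and 7 lower (median 0.02), beside 32.2% and 33.1% of all genes tested, so their shares lay near those of the table. SPRY1, a feedback inhibitor of receptor signalling, had 3.9, 2.65 and 4.27 FPKM with simvastatin and 25.5 and 29 FPKM in the control (-2.63). ETV4, an ETS factor downstream of ERK, had 3.19, 4.24 and 2.37 FPKM with simvastatin and 22.4 and 26.2 FPKM in the control (-2.59), and SPRY4 was at -1.79. The dual-specificity phosphatase genes DUSP5 and DUSP1 were higher, at 2.03 and 1.98. DUSP6, a phosphatase often used as a readout of ERK, had 2, 4.44 and 3.31 FPKM with simvastatin and 6.99 and 5.57 FPKM in the control, with -0.81 and an adjusted p of 0.15 in limma, so it was not called. EGR1 was at 0.26.

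In the list of hypoxia and glycolysis genes, 8 of 34 rose and 15 fell (median -0.33), beside 32.2% and 33.1% of all genes tested. Those that rose were mostly not enzymes of the main glycolytic chain. NDRG1, a gene induced by low oxygen and by cell stress, had 128, 145 and 112 FPKM with simvastatin and 8.63 and 10.5 FPKM in the control (3.61). VEGFA, the vascular growth factor, had 230.4, 230.0 and 230.4 FPKM with simvastatin and 32.2 and 28.6 FPKM in the control (2.88), and HK2, a hexokinase, rose by 2.97. LDHA, lactate dehydrogenase A, had 485, 265 and 382 FPKM with simvastatin and 1086 and 895 FPKM in the control (-1.43), and the glucose transporter SLC2A3 was at -2.16. PGK1, PKM, PGAM1, GAPDH and TPI1 had values from -1.30 to -1.11. ANGPTL4, a target of the hypoxia factors, had 7.85, 5.16 and 7.2 FPKM with simvastatin and 6.28 and 6.58 FPKM in the control and was not called.

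Keratins, claudins and junction genes rose in 11 of 23 cases and fell in 3 (median 0.50), beside 32.2% and 33.1% of all genes tested. Besides KRT16, DSP, the desmosomal protein desmoplakin, rose by 2.94, CLDN1 by 2.13, PKP3 by 1.54 and CLDN4 by 1.46. KRT8 and KRT18, the keratin pair of simple epithelia, were lower, with 303, 284 and 311 FPKM of KRT8 with simvastatin and 591 and 521 FPKM in the control (-0.89). Of 33 mesenchymal and matrix genes, 15 rose and 7 fell (median 0.34). The growth factor TGFB1 rose by 1.72 and the collagen chain COL6A2 by 1.67. SPARC, a matrix protein, had 0.46, 0.0549 and 0.377 FPKM with simvastatin and 5 and 6.01 FPKM in the control (-2.34), with simvastatin 2 at its lowest value, and COL13A1 was at the library's lowest value in all 3 simvastatin libraries. The change of SPARC was -4.01 with a pseudocount of 0.1.

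Proteasome genes and genes of ribosome assembly fell more often than they rose. In the table as a whole, 33.1% of the genes tested fell and 32.2% rose. Of 32 proteasome genes, 20 fell and 1 rose (2 in the fit of the 2 groups alone; median -0.37), led by PSMA2 (-1.51), PSMD1 (-1.04), the assembly factor PSMG1 (-0.92) and the activator PSME3 (-0.86). Of 41 ribosome biogenesis genes, 23 fell and 4 rose (2 without control 1, control 2 or simvastatin 3), with a median of -0.43, led by the RNA polymerase III subunit POLR3K (-1.94), NOC2L (-1.24), NOLC1 (-1.16), MYBBP1A (-1.04) and GAR1 (-1.03). Most of these changes were smaller than 2-fold, and 2 proteasome genes were at least 2-fold lower. The histone list was split, with 8 of 14 higher and 4 lower (median 0.72). H2AFX and H2AFZ, variant histones, were both at -1.73, while HIST1H2AC rose by 1.61 and HIST3H2A by 1.56. Replication-dependent histone mRNA normally has no poly(A) tail and the libraries were made by poly-T capture, and the histone genes are near-identical copies, so these values are uncertain. HIST1H4H had 1.82, and 1.32 without control 1, where it was not called.

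**Figure D4:**
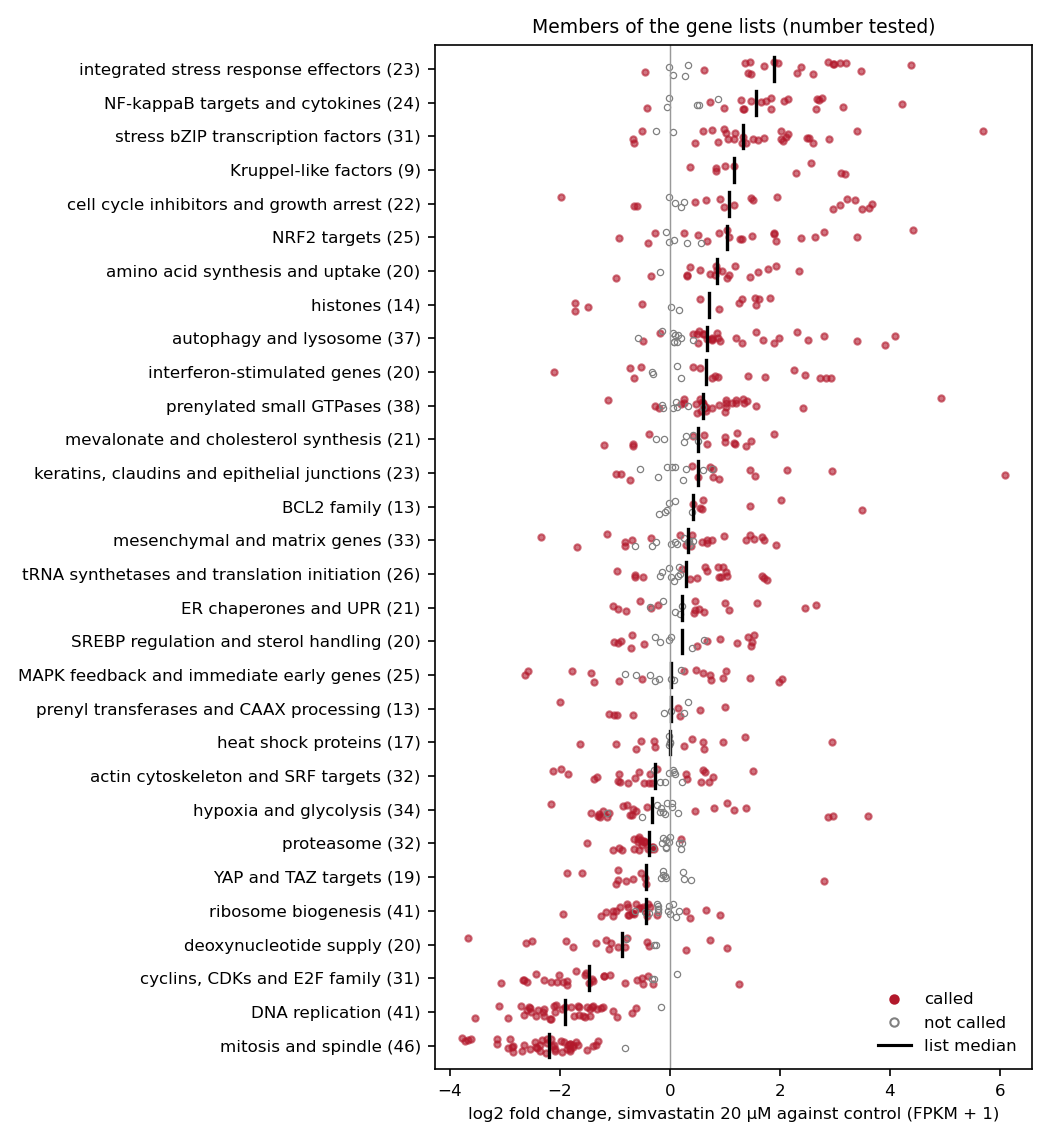
Log2 fold change, simvastatin 20 µM against control, of every tested member of 30 gene lists, with called members in filled red, others open and the list median as a black bar. The effectors of the integrated stress response have the highest median (1.89) and the mitosis and spindle genes the lowest (-2.20).

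Lovastatin differs from simvastatin by a methyl group on the side chain ester, and it was set against simvastatin at the same 20 µM. Of 8534 genes tested, 3184 differed between the compounds (37.3%), 1531 higher with simvastatin (17.9%) and 1653 lower (19.4%), but a difference of at least 2-fold was found in 178 (2.09%) and 319 (3.74%). The pairs of statins compared were 2, each adjusted over the 8534 genes, and adjustment over both pairs was not made. HMOX1 had 343, 350.1 and 351 FPKM with simvastatin and 53.7 and 52.3 FPKM with lovastatin (log2 difference 2.69, 95% interval 2.45 to 2.93, adjusted p = 6e-11). INSIG1 had 81.3, 62.9 and 86.9 FPKM with simvastatin and 30.8 and 32 FPKM with lovastatin (1.26), and HMGCS1 had 63.6, 63.7 and 62.8 FPKM with simvastatin and 40.1 and 33.8 FPKM with lovastatin (0.77). In the cholesterol synthesis list, 8 of 21 genes were higher with simvastatin, 3 were lower and 10 were not called. FAM25A (3.24), the phosphatase DUSP15 (2.57) and the actin-binding protein ABLIM3 (2.51) completed the largest differences, with the non-coding RNA UCA1 (ENSG00000273782, 2.66), which was at 1.73 without lovastatin 1. KRT15, a basal keratin, had 129, 109 and 132 FPKM with simvastatin and 805 and 811 FPKM with lovastatin (-2.71). PTGDS, a prostaglandin D synthase, had 23, 20.0 and 28.1 FPKM with simvastatin and 201 and 194 FPKM with lovastatin (-3.02). SNCG, gamma-synuclein, was lower (-2.48), as were SNHG22 (-3.04) and UBE3D (-3.07). UBE3D was at 5.62, 5.76 and 3.9 FPKM with simvastatin and at 41.4 and 6.5 FPKM in the control, so its call against the control (-1.56) rested on control 1 and was lost at -0.31 without it.

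The leading genes ranged from differences near 0 to clear ones between simvastatin and lovastatin. NDRG4 was higher with simvastatin by 1.28 (95% interval 0.77 to 1.79), SLC3A2 by 1.45 (1.22 to 1.68), TRIB3 by 1.36 (1.16 to 1.56) and TSC22D3 by 0.76 (0.42 to 1.11). KRT16 had a difference of -0.09 (-0.37 to 0.19), KLF2 of -0.05 (-0.21 to 0.12), TRAF1 of 0.10 (-0.20 to 0.41) and CDKN1A of -0.32 (-0.56 to -0.09), of which only CDKN1A was called. RHOB differed by 0.26 (0.09 to 0.44), with 290.4 and 299 FPKM in the lovastatin libraries. Among the lists, 16 of 26 tRNA synthetase and initiation genes were higher with simvastatin and 0 lower (median difference 0.40), and 13 of 20 amino acid genes were higher and 2 lower (0.65). The NF-kappaB genes went the other way, with 1 of 24 higher and 11 lower (-0.64). Of 46 mitosis genes 6 were higher and 2 lower (0.09).

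Fluvastatin, a fully synthetic statin with an indole core, was compared at the same dose. The compounds differed in 4795 of 8534 genes (56.2%), 2420 higher with simvastatin (28.4%) and 2375 lower (27.8%), and by at least 2-fold in 523 (6.13%) and 578 (6.77%). TRAF1 had 31.6, 31.8 and 30.3 FPKM with simvastatin and 2.15, 1.42 and 2.05 FPKM with fluvastatin (3.50, 95% interval 3.22 to 3.77, adjusted p = 3.7e-12). FAM129A had 63.6, 58 and 62.5 FPKM with simvastatin and 4.48, 4.69 and 4.45 FPKM with fluvastatin (3.49). HMOX1 had 343, 350.1 and 351 FPKM with simvastatin and 30.7, 28.2 and 37 FPKM with fluvastatin (3.41). All 3 genes were low in every fluvastatin library. UPP1, a uridine phosphorylase, had a difference of 3.39 and FAM25A of 4.41. PTGDS (-4.48), KRT15 (-3.29), the kallikreins KLK5 (-3.27) and KLK8 (-3.18) and IZUMO4 (-3.22) were lower with simvastatin. KRT15 had 129, 109 and 132 FPKM with simvastatin and 1180.0, 1205 and 1257 FPKM with fluvastatin.

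By list, 20 of 24 NF-kappaB genes were higher with simvastatin than with fluvastatin and 0 lower (median difference 1.29). Of 20 amino acid genes 15 were higher and 2 lower (1.25), and of 23 stress response effectors 14 were higher and 2 lower (1.22). Of 46 mitosis genes 32 were higher with simvastatin and 1 lower (0.89), and of 41 ribosome biogenesis genes 27 were higher and 0 lower (0.55). The medians of all genes tested were 0.02 in both comparisons of statins. RHOB had a difference of 0.02 (95% interval -0.14 to 0.17), KLF2 of -0.08 (-0.23 to 0.07) and CDKN1A of 0.03 (-0.18 to 0.25), and none of the 3 was called.

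**Figure D5:**
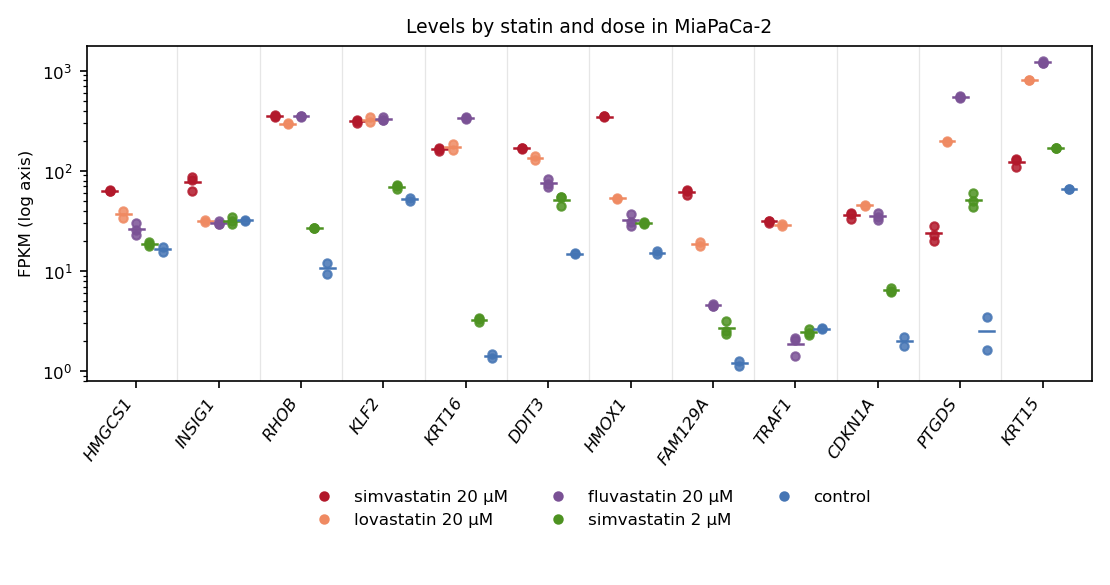
FPKM on a log axis of 12 genes in MiaPaCa-2 with simvastatin 20 µM (n = 3), lovastatin 20 µM (n = 2), fluvastatin 20 µM (n = 3), simvastatin 2 µM (n = 3) and in the control (n = 2), each dot 1 library and each bar the mean. RHOB, KLF2 and CDKN1A are above every control library with each of the 3 statins at 20 µM, HMOX1 is highest with simvastatin, and KRT15 and PTGDS are highest with fluvastatin.

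The same compound at the lower dose gave a different profile. Between simvastatin at 20 µM and at 2 µM, 5962 of 8534 genes differed (69.9%), 3024 higher at 20 µM (35.4%) and 2938 lower (34.4%), and by at least 2-fold 964 (11.3%) and 1172 (13.7%). RHOB had 357, 362 and 342 FPKM at 20 µM and 27.1, 27.2 and 26.7 FPKM at 2 µM (3.66), and KRT16 had 169.8, 156 and 164 FPKM at 20 µM and 3.07, 3.32 and 3.38 FPKM at 2 µM (5.27). ATF3 had 314, 308 and 319 FPKM at 20 µM and 12.5, 11.8 and 15.1 FPKM at 2 µM (4.48). In these genes the libraries at 2 µM lay between those of the control and those at 20 µM, and much nearer to the control. NDRG4 (4.36) and the calcium-binding protein S100P (4.34) were also higher at 20 µM, and FAM25A had 74.4, 82.3 and 82 FPKM at 20 µM and 1.2, 0.0872 and 0.0532 FPKM at 2 µM.

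The lower dose carried the higher levels of a set of hypoxia-induced genes. Of 34 hypoxia and glycolysis genes, 1 was higher at 20 µM and 31 were lower, with a median difference of -1.83. ANGPTL4 had 7.85, 5.16 and 7.2 FPKM at 20 µM and 205, 199 and 208 FPKM at 2 µM (-4.74), beside 6.28 and 6.58 FPKM in the control. ALDOC, a glycolytic aldolase, had 2.91, 4 and 2.4 FPKM at 20 µM and 204, 229 and 214 FPKM at 2 µM (-5.74), beside 10.6 and 6.56 FPKM in the control. In both genes the libraries at 2 µM stood far above those of the other groups. MUC1, a membrane mucin (-5.42), PPFIA4 (-5.12) and SLC2A3 (-4.71) followed. Against the control, MUC1 had 15.3, 17.7 and 24.4 FPKM with simvastatin at 20 µM and 41.6 and 24.1 FPKM in the control, a change of -0.73 whose call was lost without control 1 (-0.35) or without simvastatin 1 or 2. No label gives oxygen or cell density, and their part in the difference was not tested. The mitosis genes were lower at 20 µM in 45 of 46 cases (median -1.56), and the replication genes in 37 of 41 (-1.26). Of 23 stress response effectors 16 were higher at 20 µM and 4 lower (0.86).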

How the data were processed

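Messenger RNA of MiaPaCa-2 cells was read, per the labels' protocols, from poly-T captured libraries sequenced paired-end at 150 bp. The genome build was hg19, and the tools named are TopHat2 (2.0.13), Cufflinks (1.1) and Cuffdiff, per the submitters' processing notes. Deposited was a single table by the authors, log2 FPKM of 8738 genes and 42 libraries, which runs from 0.00424 to 12.7713 with 0 values at or below 0 and was read as log2(FPKM + 1); the pseudocount is not stated in the sources used here. In each independent column at least 97.1% of values recurred in 5 or more columns, as after scaling to a shared distribution, a step the sources used here do not give. No counts were used, so the depth and the precision it gives are unknown. The rule by which the genes of the table were chosen is also not given, so shares of genes called hold for this table.

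The values under the title of control 3 in MiaPaCa-2 were the sum of control 1 with a weight of 0.5, control 2 with 0.49 and a PANC-1 fluvastatin 20 µM library with 0.01. Those of lovastatin 20 µM 3 were the sum of lovastatin 1 (weight 0.45), lovastatin 2 (0.48) and simvastatin 20 µM 3 (0.07). The largest residual was 4.99e-09, and both were left out of the main fit.

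Groups came from the titles. Genes with at least 1 FPKM in at least 3 of the 19 independent MiaPaCa-2 libraries were tested (8534). They were fitted with 1 mean for each of the 7 groups by limma (3.58.1, R 4.3.3) using a mean-variance trend and robust estimation, two-sided, with Benjamini-Hochberg adjustment over the genes tested in a contrast. The fit was tested on simulated data. Calls needed an adjusted p under 0.05, and those with a 2-fold change were counted besides. Of 969 entries in 34 gene lists, 793 were in the table. Some lists share members, such as BBC3, SESN2 and MTHFD2, whose changes count in each list that holds them. The members and lists were chosen with earlier results of these data known, and 1 list of surface and signalling genes was picked from such results and is described by no theme. Genes were named by rule: the 12 largest changes in each direction among called genes with no overlap and a group mean of at least 5 FPKM, up to 5 called members of each list by size, a few fixed genes such as HMGCS1, KLF2, RHOB and CDKN1A, and 5 for each direction of the other contrasts. Other members appear with values where their role asked for it, and were chosen after their values were seen. Some genes are not reported here. Promoter sequences are from RefSeq (GRCh38.p14); no gene coordinates of the files' build are printed. The alternatives tried were quantile normalization, a median shift, a pseudocount of 0.1, no filter, the compared groups alone, a replicate block, the derived columns kept, limma with no trend, and each library left out.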

Additional observations from a re-analysis of the deposited data

How the results depend on the processing

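The counts over all genes stayed within 1.5 times their value in all 93 recalculations. Without 1 library in turn, the genes higher with simvastatin at 20 µM than in the control numbered 2289 to 2606 and those lower 2423 to 2714, with 1035 to 1055 and 1088 to 1099 at least 2-fold. The genes that differed numbered 2213 to 2802 from lovastatin, 4325 to 4395 from fluvastatin and 5618 to 5692 from simvastatin at 2 µM. Replicate numbers did not pair the samples: deviations of same-numbered libraries correlated between -0.0313 and 0.0347 over 52 pairs. With the replicate block, 2679 genes were higher and 2790 lower than in the control, 1037 and 1098 of them at least 2-fold, and 3080, 4740 and 5930 differed from lovastatin, fluvastatin and simvastatin at 2 µM. Of 2841 recalculated values of named genes, 15 lost their call and 2 changed sign, both of ANGPTL4, which was not called at 0.04 and ran from -0.0642 (without simvastatin 1; -0.0088 without simvastatin 3) to 0.20 (without simvastatin 2); the cause was not tested. The calls lost included those of MUC1, UBE3D, PSME2, PDSS1, MVD, HIST1H4H and KLK8, in fits of the compared groups alone or without 1 library. Of 884 recalculated list counts, 22 fell and 3 rose by more than 1.5 times, all of them counts of 8 or fewer. The control rested on 2 libraries, so its spread was taken from all groups of the line. Values near a library's lowest value are limited by an unknown depth.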

Other observations

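A group of surface and signalling genes, picked from earlier results on these libraries and therefore no evidence of a theme, held several large changes. S100P and S100A2, calcium-binding proteins of the S100 family, had 44.7, 41.1 and 45.6 FPKM and 369.7, 337 and 372 FPKM with simvastatin at 20 µM, against 1.65 and 1.45 FPKM and 26.1 and 19 FPKM in the control (log2 fold changes 4.14 and 3.95 by limma). CD55, a membrane inhibitor of complement, had 179, 177 and 181 FPKM with simvastatin and 10.7 and 9.86 FPKM in the control (4.00). In all 3 genes the libraries of the groups were far apart. TXNIP, an inhibitor of glucose uptake that is also on the list of integrated stress response effectors, had 194, 211 and 218 FPKM with simvastatin and 40.1 and 27.6 FPKM in the control (2.60). RGS4, a regulator of G protein signalling, was the only member that fell, with 217, 226 and 247 FPKM with simvastatin and 817 and 805 FPKM in the control (-1.82). Of 21 members tested 18 were higher, with a median of 2.60.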
